A study of Mus musculus with 19 samples.

Results

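Kinesins and cytoplasmic dynein are the motors that carry cargo along microtubules, and the genes described here encode their subunits. The members were the rows of the RNA and ribosome-footprint count tables whose symbol begins with Kif followed by a digit or c, with Klc or Dctn followed by a digit, or with Dync or Dynl. This gave 66 of the 20436 genes in both tables: 45 kinesin heavy and light chains, 15 dynein subunits and 6 subunits of dynactin. The rule uses names only and no measured value.

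Most kinesins walk toward the plus end of the microtubule, which in an axon points away from the cell body. Dynein, assisted by dynactin, walks the other way. Kinesin-1 is built from heavy chains, which carry the motor, and light chains, which bind cargo. Neurons express the heavy-chain genes Kif5a, Kif5b and Kif5c, of which Kif5b is the widely expressed form, and rely on these motors for the delivery of vesicles, mitochondria and RNA granules to axons and dendrites.

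RNA and ribosome footprints (RPF, mRNA fragments that a translating ribosome shields from nuclease) were counted in hippocampal slices. The slices came from wild-type male mice aged postnatal day 28 to 42. Slices received 100 µM DHPG, an agonist of group I metabotropic glutamate receptors, or artificial cerebrospinal fluid (vehicle, called basal here) for 5 min, and cycloheximide at 100 µg/ml before freezing. According to the methods each replicate pooled slices of several mice, and CA3 had been kept in the slices of batches 1 to 5. The labels give replicate numbers, which both treatments carry. These numbers were taken here as those batches, which neither the labels nor the methods state outright. The groups were basal RNA (n = 4, replicates 1 to 4), DHPG RNA (n = 5), basal RPF (n = 5) and DHPG RPF (n = 5). RNA libraries held 4870813 to 7793244 counts and RPF libraries 5692064 to 22092434. Each library mixes all cells of a slice, so more cells of a type and more RNA per cell cannot be told apart.

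Whether a motor gene can be counted at all depended on its sequence, since the deposited counts rest on reads that mapped to 1 place. All 30-base windows of the counted coding sequence were found in no other annotated gene for 48 of the 66 members, and 18 shared at least 1 window with another gene. Kif5a, Kif5b and Kif5c shared none. Over their aligned coding bases Kif5a and Kif5c were 74.7% identical and Kif5a and Kif5b 67.6%. The 30-base stretch in which Kif5a and Kif5c are most alike is printed to show how a footprint tells them apart. Capitals mark the base that differs, both stretches cover coding bases 857 to 886, and the genomic intervals in mm10 are chr10:127243442-127243471 (minus strand) for Kif5a and chr2:49700994-49701023 (plus strand) for Kif5c.
Kif5a: ggattctccaggactctctgggAgggaact
Kif5c: ggattctccaggactctctgggTgggaact
The dynein light chains Dynll1 and Dynll2, at 81.3% identity, differed at 2 bases or more in every aligned stretch. In their closest stretch, coding bases 86 to 115, capitals again mark the differences. It lies at chr5:115300530-115300559 for Dynll1 and chr11:87983889-87983918 for Dynll2, both on the minus strand.
Dynll1: tggagaagtacaacatCgagaaggaTattg
Dynll2: tggagaagtacaacatAgagaaggaCattg
The Dynlt1 copies on chromosome 17 encode another dynein light chain and are the opposite case. Dynlt1a and Dynlt1f had identical coding sequences, and Dynlt1b differed from Dynlt1a only by C21A, counted from the first coding base, which lies in the 30 coding bases left out of the RPF counts. Coding bases 31 to 60 carry no capitals because no base differs. They lie at chr17:6314926-6314955 (minus strand) in Dynlt1a, chr17:6431883-6431912 (plus strand) in Dynlt1b and chr17:6653320-6653349 (minus strand) in Dynlt1f.
Dynlt1a: gcatttgttgttgatgaagtgagcagcatt
Dynlt1b: gcatttgttgttgatgaagtgagcagcatt
Dynlt1f: gcatttgttgttgatgaagtgagcagcatt
Not a single coding window of these copies was unique, and their counts summed to 1 over all RNA libraries and to 7 over all RPF libraries. The RPF rows therefore say nothing about how much Dynlt1 the slices translated. RNA was counted on whole transcripts, and whether their noncoding parts are unique was not tested. The RNA counts of these copies are thus not read as a level either. Kifc1 and Kifc5b, mitotic kinesin-14 copies with 98.4% identical coding sequence, kept only 26.0% and 29.5% unique windows. Dynll1 kept 62.4% and shared the others with annotated genes such as BC048507 and Gm6788. All members not named here kept 88.1% or more.

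Per unit length, Kif5a RNA was the most abundant motor RNA, while Kif5a footprints were no more abundant than those of Kif5c. Levels are given as counts scaled to library size (CPM), and between genes as CPM per kilobase of the counted sequence (the whole transcript for RNA, the trimmed coding sequence for RPF). Kif5a RNA measured 2873, 2467, 1903 and 2944 CPM in basal replicates 1 to 4, and 2917, 2287, 2419, 2892 and 2282 CPM in DHPG replicates 1 to 5. Kif5c RNA measured 930, 638, 484 and 944 CPM in the basal libraries and 848, 587, 586, 890 and 812 CPM after DHPG. Kif5b RNA measured 148, 127, 85.1 and 217 CPM in the basal libraries and 126, 128, 105, 215 and 184 CPM after DHPG. For each of these genes replicate 3 was the lowest basal RNA library, and the basal and DHPG values overlapped.

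The footprints of the heavy chains were ordered differently. Kif5a RPF measured 495, 472, 474, 464 and 488 CPM in the basal libraries and 465, 503, 500.5, 476 and 492 CPM after DHPG. Kif5c RPF measured 422, 494, 487, 452 and 443 CPM in the basal libraries and 434, 507, 486, 417 and 433 CPM after DHPG. Kif5b RPF measured 179, 224, 212, 197 and 187 CPM in the basal libraries and 182, 234, 234, 178 and 177 CPM after DHPG. The footprint libraries lay closer together than the RNA libraries, and the treatments overlapped for all of these genes.

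Per kilobase, basal Kif5a RNA stood at 405 ± 76.0 CPM (SD, n = 4), Kif5c at 109 ± 33.0 and Kif5b at 23.9 ± 9.17. In basal RPF the same quantity was 158 ± 4.11 for Kif5a (SD, n = 5), 164 ± 10.8 for Kif5c and 70.6 ± 6.47 for Kif5b. The ratio of Kif5a to Kif5b was thus 17.6-fold in RNA (12.96 to 21.4 over libraries) and 2.25-fold in RPF (1.98 to 2.59), and these ranges did not overlap. Kif5a to Kif5c was 3.79-fold in RNA (3.37 to 4.28) and 0.969-fold in RPF (0.888 to 1.09), again without overlap. As shares of the summed heavy chains, Kif5a made up 75.6% ± 2.55 of basal RNA but 40.4% ± 2.25 of basal RPF. Kif5b made up 4.35% ± 0.872 of the RNA and 18.0% ± 1.003 of the footprints, and Kif5c 20.02% ± 1.98 and 41.6% ± 1.27.

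**Figure D1:**
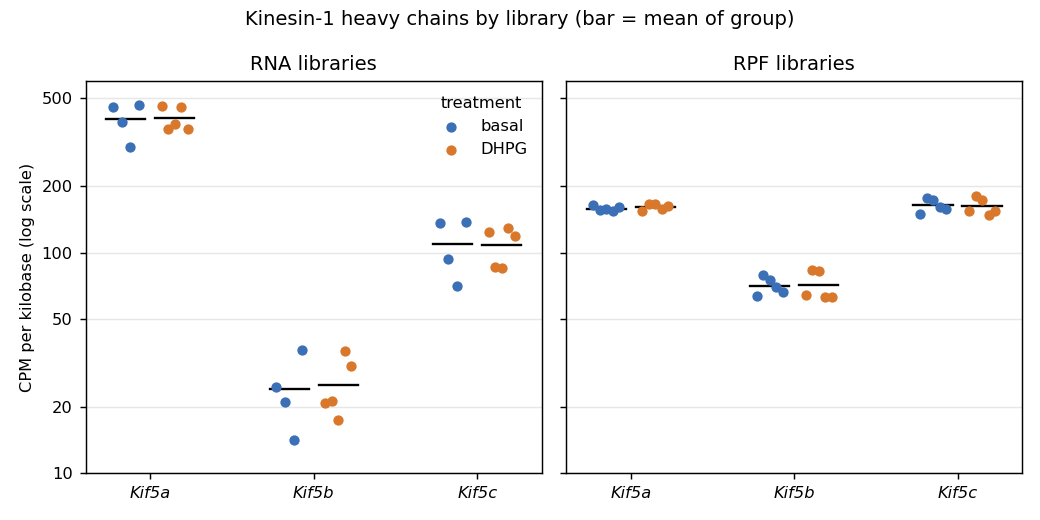
CPM per kilobase of Kif5a, Kif5b and Kif5c in each library (points, log axis), RNA on the left and RPF on the right, basal in blue and DHPG in orange, with the mean of each group as a black bar. In RNA the genes are spread from a mean of 23.9 (Kif5b) to 405 (Kif5a) in basal libraries, in RPF from 70.6 to 164.

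Translational efficiency (TE) was taken as log2 of RPF over RNA CPM per kilobase in the same basal replicate (n = 4). Its zero depends on the depths of both assays, so it is read against other genes: the median of 12643 genes tested in both assays was 0.85. Kif5a had a TE of −1.34 ± 0.29 (SD), at percentile 4.69 of those genes. Kif5c stood at 0.65 ± 0.55, percentile 44.8, and Kif5b at 1.66 ± 0.64, percentile 70.9. Within a replicate the gap from Kif5a to Kif5b was 2.997 ± 0.367 log2 units, a factor of 7.98, and lay between 2.56 and 3.35 in the 4 replicates. From Kif5a to Kif5c it was 1.99 ± 0.31. All 4 replicates had the same direction in both gaps, for which an exact sign-flip permutation test (two-sided) gives p = 0.125, the smallest p that 4 replicates allow. With the median length of all coding transcripts in place of the longest coding one, basal log2 Kif5a over Kif5c in RPF moved from −0.05 to −0.74, so the near equality of these genes in footprints depends on the length used.

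The main light chains of kinesin-1, Klc1 and Klc2, took overlapping shares of RNA and footprints, while the rarer Klc3 and Klc4 took smaller shares of the footprints. Klc1 had 540 ± 33.6 CPM in basal RNA (n = 4) and 425 ± 13.4 CPM in basal RPF (n = 5), and Klc2 had 307 ± 32.6 and 178 ± 14.996 CPM. Klc1 made up 65.9% ± 2.43 of the light chain RNA and 69.3% ± 1.43 of the light chain footprints per kilobase, Klc2 29.5% ± 2.52 and 28.8% ± 1.37. Klc4 contributed 3.79% and 1.703%, and Klc3, a light chain best known from testis, 0.771% and 0.241%. Summed per kilobase, heavy chains exceeded light chains by a factor of 1.65 ± 0.389 in basal RNA (1.16 to 2.09) and 1.15 ± 0.0899 in basal RPF (1.07 to 1.246). The ranges over libraries overlapped for Klc1, for Klc2 and for the ratio of heavy to light chains, and did not overlap for Klc3 or for Klc4 (3.29% to 4.38% in RNA and 1.53% to 1.90% in RPF).

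Among other cargo kinesins, the kinesin-3 genes Kif1a and Kif1b, which move synaptic vesicle precursors and mitochondria, stood at 201 ± 15.3 and 94.5 ± 18.7 CPM per kilobase in basal RNA and at 199 ± 5.18 and 139 ± 9.77 in basal RPF. Kif1a RNA was 1312, 1252, 1274 and 1099 CPM in basal replicates 1 to 4 and its RPF 1084, 1018, 1075, 1077 and 1045 CPM in replicates 1 to 5. Kif1c, the third of these paralogs, is broadly expressed. Its RNA was 180, 193, 199 and 179 CPM, while its RPF was only 17.1, 14.9, 13.2, 13.998 and 18.8 CPM in the basal libraries. It thereby held 11.2% ± 1.06 of the Kif1 RNA per kilobase and 1.39% ± 0.222 of the footprints.

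Kinesin-2 drives transport in axons and in cilia, as heterotrimers in which Kif3a pairs with Kif3b or Kif3c. In basal RNA Kif3c stood at 39.1 ± 1.87 CPM per kilobase and Kif3a at 30.6 ± 10.3, and in basal RPF at 71.0 ± 1.81 and 108 ± 4.02. Kif3a made up 38.6% ± 6.76 of the RNA of the heterotrimeric motors per kilobase and 53.3% ± 1.06 of the footprints, Kif3c 51.2% ± 6.91 and 35.1% ± 1.06, and Kif3b 10.2% ± 0.336 and 11.6% ± 0.677. The Kif3a transcript was taken as 2178 bases, of which 2175 are coding. The Kif3c transcript was taken as 6791 bases, where the median of its coding transcripts is 4144. Before division by length, basal RNA was 66.6 ± 22.5 CPM for Kif3a and 265 ± 12.7 for Kif3c. The RNA shares of these genes therefore depend on the length used. An annotated antisense transcript covers 38.5% of the Kif3c transcript, and how the counting treated strand is not given in the sources used here. Kif17, the homodimeric kinesin-2 known for carrying NMDA receptor subunits in dendrites, stood at 7.70 ± 0.990 CPM per kilobase in RNA and 4.51 ± 0.477 in RPF.

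Kif21a and Kif21b are kinesin-4 motors that also act on microtubule growth. Kif21a held 71.8% ± 10.2 of the RNA of this pair per kilobase and 87.3% ± 0.953 of the footprints. Kif2a, a kinesin-13 that takes microtubules apart instead of walking on them, had 87.6, 53.1, 36.1 and 68.9 CPM in basal RNA replicates 1 to 4 and 159, 160, 139, 135 and 138 CPM in basal RPF. Its RNA varied 2.42-fold between replicates and its footprints 1.18-fold over the same replicates.

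**Figure D2:**
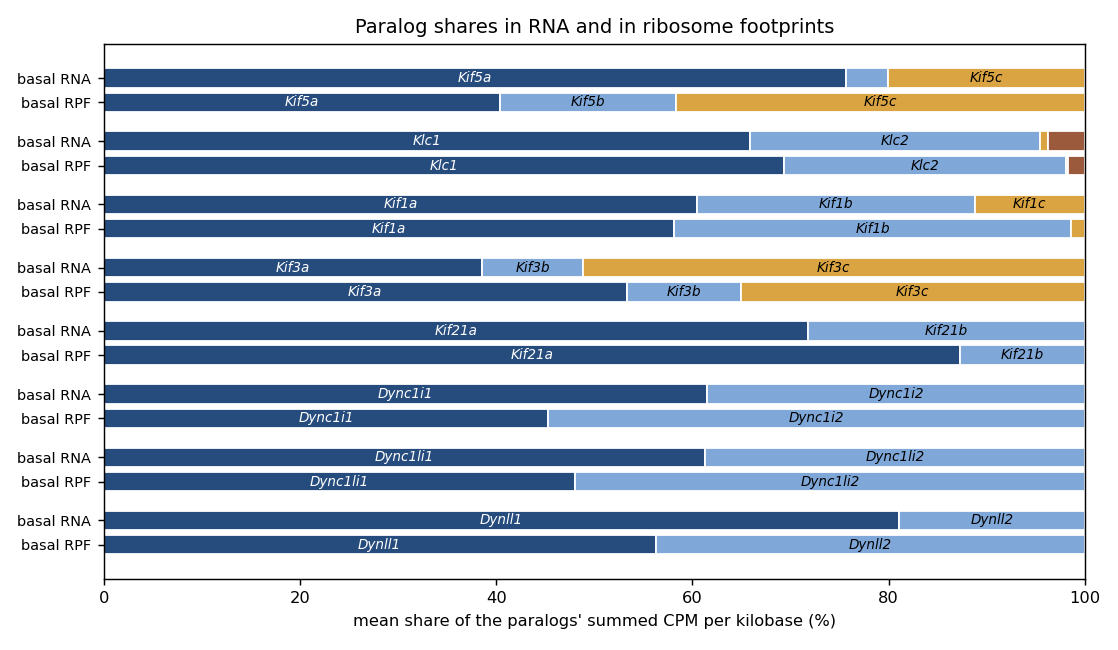
Mean share of each paralog in the summed CPM per kilobase of its group, for basal RNA (n = 4) and basal RPF (n = 5) in 8 groups of motor genes. Kif5a takes 75.6% of the RNA bar and 40.4% of the RPF bar, Kif1c nearly disappears from the RPF bar (11.2% to 1.39%), and the light chains Klc1 and Klc2 keep similar shares.

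Among the dynein subunits, too, paralogs that led in RNA did not always lead in footprints. The heavy chain Dync1h1, the ATPase that pulls, had 1105, 1070, 1009 and 1051 CPM in basal RNA and 470, 557, 503, 584 and 529 CPM in basal RPF. The heavy chain of ciliary dynein, Dync2h1, made up 8.97% ± 1.56 of heavy chain RNA and 7.52% ± 1.06 of heavy chain footprints per kilobase. Of the intermediate chains, which hold the complex together and bind dynactin, the neuronal Dync1i1 exceeded Dync1i2 in RNA (61.5% ± 4.99 of the pair per kilobase) but not in RPF (45.3% ± 2.91). For the light intermediate chains, which bind cargo adaptors, Dync1li1 took 61.3% ± 1.91 of the RNA and 48.0% ± 1.02 of the footprints per kilobase, Dync1li2 the rest. Before division by length, Dync1li2 had more basal RNA (150 ± 28.3 CPM against 132 ± 16.6). Its transcript was taken as 4627 bases, where the median of its coding transcripts is 3017. The lead of Dync1li1 in RNA therefore appears only after division by length, and its size depends on the length used.

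The small light chains Dynll1, Dynll2 and Dynlrb1, which bind the intermediate chains, had the most footprints of all members for their length. Dynll2 had 46.5, 49.6, 48.1 and 39.2 CPM in basal RNA and 264.5, 309, 261, 255 and 247 CPM in basal RPF. Dynll1 had 148, 160, 175 and 159 CPM in RNA and 350, 364, 339, 326 and 337 CPM in RPF. Per kilobase of coding sequence their basal RPF levels, 1657 ± 69.4 for Dynll1 and 1292 ± 117 for Dynll2, ranked 1 and 2 among the members, at percentiles 99.6 and 99.4 of all genes tested. Dynll2 made up 18.96% ± 1.71 of the RNA of this pair and 43.8% ± 1.37 of the footprints. Only 62.4% of the counted coding windows of Dynll1 were unique, against 100% for Dynll2. The footprint level and share of Dynll1 may therefore be too low, and the size of this effect was not tested. The roadblock chain Dynlrb1 ranked 3 in RPF at 493 ± 42.6 CPM per kilobase, and Dynlt3, a Tctex-type chain, ranked 5 at 300 ± 27.1. Between them stood the dynactin subunit Dctn2. Dynlrb2, the ciliary roadblock chain, ranked 38 and contributed 0.498% of roadblock footprints. The coding sequences of these chains are 267 to 348 bases long before trimming, so their levels per kilobase rest on fewer positions than those of the other members.

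Dynactin, which links dynein to its cargo and keeps it on the track, was present with all 6 measured subunits. Dctn1 encodes p150Glued, its microtubule-binding arm, and Dctn2 encodes dynamitin. Dctn2 had the highest level per kilobase of the dynactin subunits in both assays, at 176 ± 18.98 CPM in basal RNA and 355 ± 26.5 in basal RPF. Dctn1 stood at 98.2 ± 10.7 in RNA and 77.8 ± 7.96 in RPF, and Dctn5, a small subunit of the pointed end, at 20.3 ± 1.054 and 165 ± 6.78.

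Over the 51 members tested in both assays, basal TE ran from −3.14 for Kifc2 to 6.14 for Dynll2, with a median of 0.00065. All genes tested in both assays had an interquartile range of −0.08 to 1.86. TE lay above the median of all genes for 20 of the 51 members (39.2%): 7 of 34 kinesin chains, 8 of 11 dynein subunits and 5 of 6 dynactin subunits. The highest were Dynll2 at 6.14 ± 0.12 (SD, n = 4, percentile 99.7), Dynlt3 at 4.74 ± 0.66 and Dynll1 at 4.39 ± 0.13. The lowest were Kifc2 at −3.14 ± 0.31 (percentile 0.111), Kif1c at −3.03 ± 0.21 (percentile 0.142) and Kif26a at −2.55 ± 0.31. TE was lower for members with longer coding sequences (Spearman rho −0.64, n = 51), and across all genes tested rho was −0.55 (n = 12643). This is a description across genes, which are not independent replicates, and the length also enters TE.

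**Figure D3:**
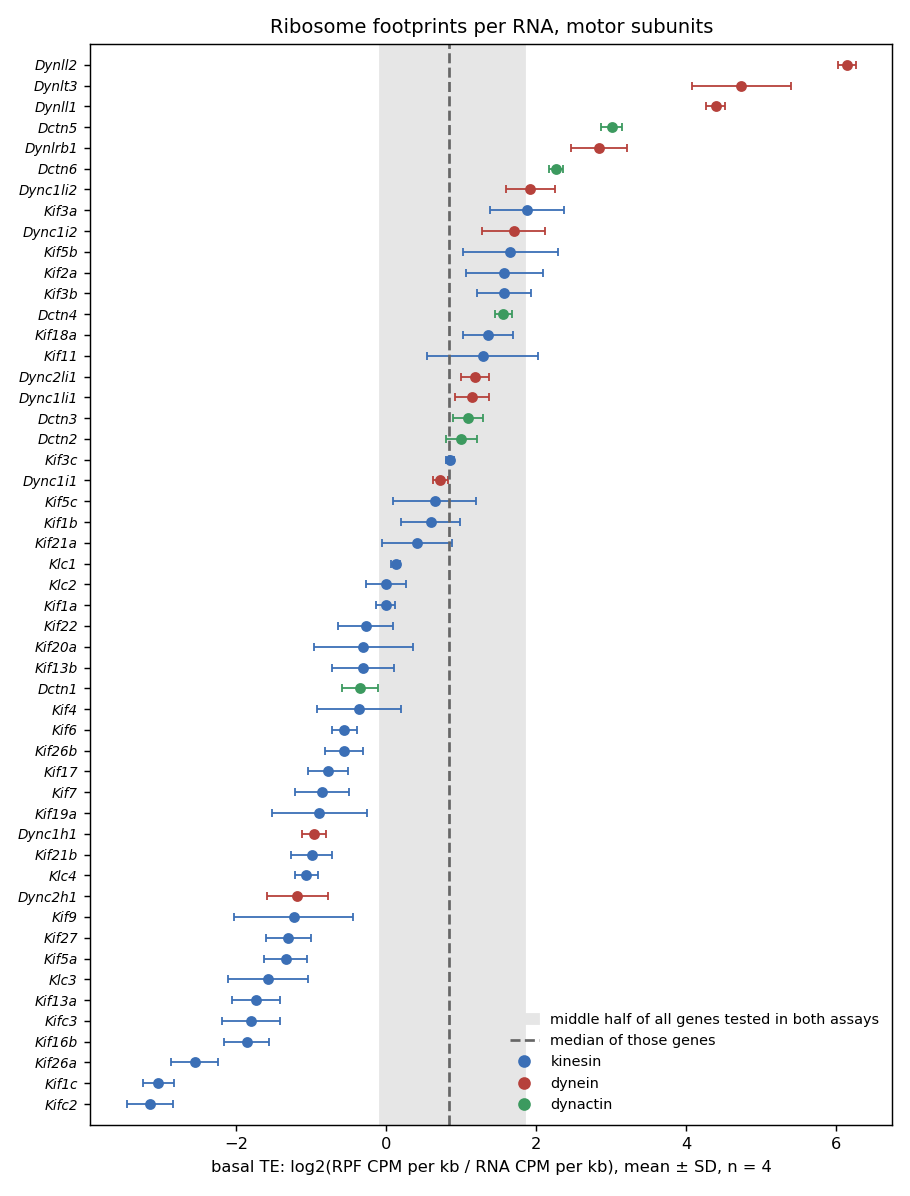
Basal TE of the 51 members tested in both assays, as log2 of RPF over RNA CPM per kilobase (mean ± SD over replicates 1 to 4), kinesin chains in blue, dynein in red and dynactin in green. The dashed line is the median of all genes tested in both assays (0.85) and the grey band their interquartile range. Kif5a (−1.34), Kif1c and Kifc2 lie left of the band, and the dynein light chains lie far to its right.

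Kifc2, a kinesin-14 of neurons, had the lowest TE of the members although its RNA was among the most abundant. Its RNA was 558, 738, 740 and 572 CPM in basal replicates 1 to 4 and 588, 727, 803, 596 and 595 CPM after DHPG. Its RPF was 49.3, 50.03, 50.8, 60.5 and 57.3 CPM in the basal libraries and 52.3, 49.7, 47.3, 57.6 and 55.8 CPM after DHPG. Per kilobase Kifc2 ranked 3 among the members in RNA and stood at percentile 97.9 of all genes tested, but at percentile 57.2 in RPF. All of its 30-base windows were unique. Kif26a, an atypical kinesin-11, had 19.2 ± 6.21 CPM in RNA and 2.64, 2.31, 2.95, 1.87 and 3.98 CPM in basal RPF replicates 1 to 5.

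At the other end of the abundance scale, the mitotic motors, which build and move the spindle of dividing cells, had few counts. None of 12 exceeded a basal mean of 3.35 CPM in RNA or 4.00 CPM in RPF, and the highest in RPF was Kif11, the spindle motor Eg5, at 4.34, 3.10, 3.99, 5.37 and 3.18 CPM. Kif15 had 4 to 19 counts per basal RPF library. Kif12 and Kif2b had 0 counts in all 9 RNA and 10 RPF libraries. Counting error alone would allow a mean of up to 0.0535 CPM over the RNA libraries and 0.0235 CPM over the RPF libraries (3 counts over the assay). Markers of dividing cells summed to 13.1 to 19.4 CPM over 8 genes in basal RNA and to 19.3 to 36.4 CPM in basal RPF. The ciliary list runs from Kif3a and Dync2h1, described above, to rare members. Of its kinesin-8 and kinesin-9 motors, Kif19a had 13.1 ± 4.78 CPM in RNA and 5.94 ± 1.87 in RPF, and Kif6 4.60 ± 0.406 CPM in RNA.

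The RNA of many members varied more between basal replicates than their footprints did. Over replicates 1 to 4, the SD of log2 CPM was larger in RNA than in RPF for 37 of the 51 members (72.5%), with medians of 0.25 and 0.14. The corresponding values over all genes tested in both assays were 74.4%, 0.25 and 0.14, close to those of the motor genes. Kif5b RNA spanned 2.55-fold, with an SD of 0.56 in RNA and 0.14 in RPF. Dynlt3 spanned 2.32-fold in RNA against 1.28-fold, Kif21a 2.16-fold against 1.10-fold, Kif3a 2.06-fold against 1.09-fold and Kif5c 1.95-fold against 1.17-fold. Kif3c RNA spanned only 1.12-fold and Dync1h1 RNA 1.10-fold.

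The differences between basal RNA replicates 3 and 4 went with the GC content of their transcripts. Replicates 1 to 4 were the lowest basal RNA library for 7, 12, 20 and 12 of the 51 members and the highest for 17, 3, 13 and 18. The difference of basal RNA replicate 3 from replicate 4, a pair chosen after the values were seen, was −1.35 log2 units for Kif5b (41.1% GC), −1.11 for Kif21a (47.1% GC) and −0.96 for Kif5c (47.5% GC). It was 0.50 for Kifc3 (60.3% GC) and 0.37 for Kifc2 (59.5% GC). Across the 51 members, this difference was larger at higher GC content (Spearman rho 0.84 in basal RNA and 0.78 in the same replicates of DHPG RNA), and across all genes tested rho was 0.68 and 0.59. In RPF it was −0.27 for the members. These are descriptions across genes that share libraries. The part of GC content in the spread of TE was not tested.

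**Figure D4:**
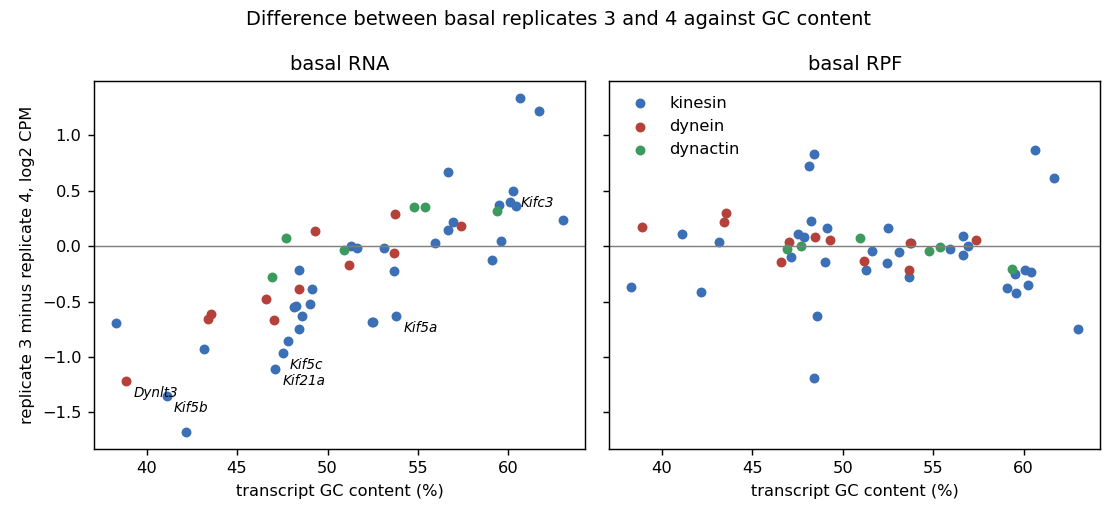
Difference of replicate 3 from replicate 4 in log2 CPM against transcript GC content for the 51 members tested in both assays, basal RNA on the left and basal RPF on the right, kinesin chains in blue, dynein in red and dynactin in green. In RNA most points with low GC content lie below zero (Kif5b, −1.35) and most with high GC content above it (Kifc3, 0.50), with rho 0.84, and in RPF rho is −0.27.

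DHPG for 5 min left no motor gene past the threshold in the RNA replicates used here. Of the 52 members that passed the filter on low counts, 0 had an adjusted p under 0.01 in edgeR's quasi-likelihood test with the replicate as a block, where 0.00773% of all 12935 genes tested did. At an unadjusted p under 0.05 there were 2 members (3.85%) against 8.02% of all genes. DESeq2 with the same block and the route of ComBat followed by DESeq2 called 0 members as well. The ComBat route called 102 of all 12935 genes, and 7 members had an unadjusted p under 0.05 by it. The share of all genes at that level by this route is not given here. The median log2 fold change was 0.00076 for the members and 0.0068 for all genes, and 27 members were higher and 25 lower, where 52.1% of all genes were higher. Kif26b, an atypical kinesin-11, had 57.4, 57.4, 61.3 and 62.2 CPM in basal RNA and 70.0, 60.5, 72.2, 73.2 and 60.8 CPM after DHPG, with 4 of 4 pairs higher. DHPG replicates 2 and 5 lay within the basal range and the other DHPG libraries above it, and the log2 fold change was 0.21 (SE 0.08, adjusted p = 0.545 in edgeR). Kifc3, a kinesin-14 of cell junctions and the Golgi, had 70.2, 82.3, 102 and 72.2 CPM in basal RNA and 83.6, 91.4, 117, 78.9 and 85.1 CPM after DHPG. The pooled groups overlapped while 4 of 4 pairs were higher, with a log2 fold change of 0.18 (SE 0.07, adjusted p = 0.558 in edgeR). With GC and length trends removed from each library the log2 fold changes were 0.11 for Kif26b and 0.10 for Kifc3. Over 12 runs with edgeR, DESeq2 or ComBat followed by DESeq2, the smallest adjusted p was 0.0421 for Kif26b and 0.0508 for Kifc3.

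The next smallest p-values in RNA belonged to Kif21b (log2 fold change 0.14, SE 0.08) among those higher, and to Dctn6 (−0.19, SE 0.09), Dctn2 (−0.11, SE 0.07) and Klc4 (−0.15, SE 0.10) among those lower, with adjusted p-values in edgeR of 0.668, 0.629, 0.7045 and 0.707. Dctn6, Dctn2 and Klc4 were lower in 4 of 4 pairs each, and Kif21b was higher in 2 of 4. Kif21b stood at 0.04 without replicate 4, at 0.06 without the replicate block and at 0.03 with GC and length trends removed. The heavy chains lay closer to zero: log2 fold changes were 0.06 (SE 0.07) for Kif5a, 0.01 (SE 0.08) for Kif5b and −0.02 (SE 0.07) for Kif5c, with adjusted p-values of 0.864, 0.989 and 0.970 in edgeR. These directions depended on single replicates: without replicate 3 the log2 fold change was −0.04 for Kif5a and −0.08 for Kif5b, and for Kif5c it was above zero without replicate 1, 2 or 4 (0.0035 to 0.017). The paper lists Kif5a among the RNAs that respond to DHPG in wild-type slices. Its test used ComBat and DESeq2 and included further batches of CA1-enriched slices that are not used here.

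In footprints no motor gene passed the threshold after DHPG either. Of 51 members tested, 0 had an adjusted p under 0.05 in edgeR, against 0.22% of all 13208 genes tested. At an unadjusted p under 0.05 there were 5 members (9.8%) against 10.8% of all genes. DESeq2 with the same block called 0 members, and ComBat followed by DESeq2 called 1, Kif21a. The median log2 fold change was −0.0059 for the members and 0.0031 for all genes, and 23 members were higher and 28 lower, where 51.4% of all genes were higher. Kif21a had 172, 173, 158, 169 and 159 CPM in basal RPF and 159, 162, 147, 166 and 150.2 CPM after DHPG. It was lower in 5 of 5 pairs although the groups overlapped, with a log2 fold change of −0.09 (SE 0.03, adjusted p = 0.317 in edgeR and 0.0207 by ComBat followed by DESeq2, which called 429 of all genes). Kif3b had 49.2, 53.7, 53.5, 47.7 and 52.7 CPM in basal RPF and 40.7, 49.3, 51.6, 48.0 and 46.8 CPM after DHPG. It was lower in 4 of 5 pairs, with a log2 fold change of −0.11 (SE 0.05, adjusted p = 0.373 in edgeR).

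The remaining members at that level in RPF were rare, apart from Kif2a. Klc3, whose RNA was at 4.79 ± 0.799 CPM in the basal libraries, had 1.40, 1.16, 0.771, 1.40 and 1.35 CPM in basal RPF and 1.96, 1.27, 1.65, 2.17 and 1.76 CPM after DHPG, higher in 5 of 5 pairs, with a log2 fold change of 0.57 (SE 0.22, adjusted p = 0.327 in edgeR). Exons of Ercc2 on the opposite strand cover 30.8% of the Klc3 transcript. Kif6, a kinesin-9 of cilia, had 1.71, 2.07, 2.09, 2.45 and 2.38 CPM in basal RPF and 2.31, 1.41, 1.60, 1.69 and 1.26 CPM after DHPG, with a log2 fold change of −0.46 (SE 0.20, adjusted p = 0.381 in edgeR). The groups overlapped for both genes. Kif2a had a log2 fold change of −0.07 (SE 0.03, adjusted p = 0.444 in edgeR). Dynll2 (0.06, SE 0.03) and Kif22 (0.30, SE 0.17) were the next among those higher, with adjusted p-values of 0.499 and 0.546 in edgeR. Without replicate 3 the value for Dynll2 was 0.03.

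The heavy chains had smaller errors in RPF than in RNA. Their log2 fold changes after DHPG were 0.03 (SE 0.03) for Kif5a, 0.01 (SE 0.03) for Kif5b and −0.01 (SE 0.03) for Kif5c, with adjusted p-values of 0.7795, 0.945 and 0.902 in edgeR. The dynein and dynactin subunits stayed within −0.05 and 0.06 in RPF. Within replicates, log2 Kif5a over Kif5b changed by 0.04 ± 0.16 in RNA (4 pairs, exact sign-flip permutation test, two-sided, p = 0.750, adjusted p = 0.750 over 4 comparisons) and by 0.02 ± 0.12 in RPF (5 pairs, exact p = 0.688, adjusted p = 0.750). Log2 Kif5a over Kif5c changed by 0.07 ± 0.06 in RNA, higher in 4 of 4 pairs (exact p = 0.125, the smallest that 4 pairs allow, adjusted p = 0.5). In RPF it changed by 0.04 ± 0.10, higher in 4 of 5 pairs (exact p = 0.438, adjusted p = 0.750), where the smallest possible p is 0.0625.

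**Figure D5:**
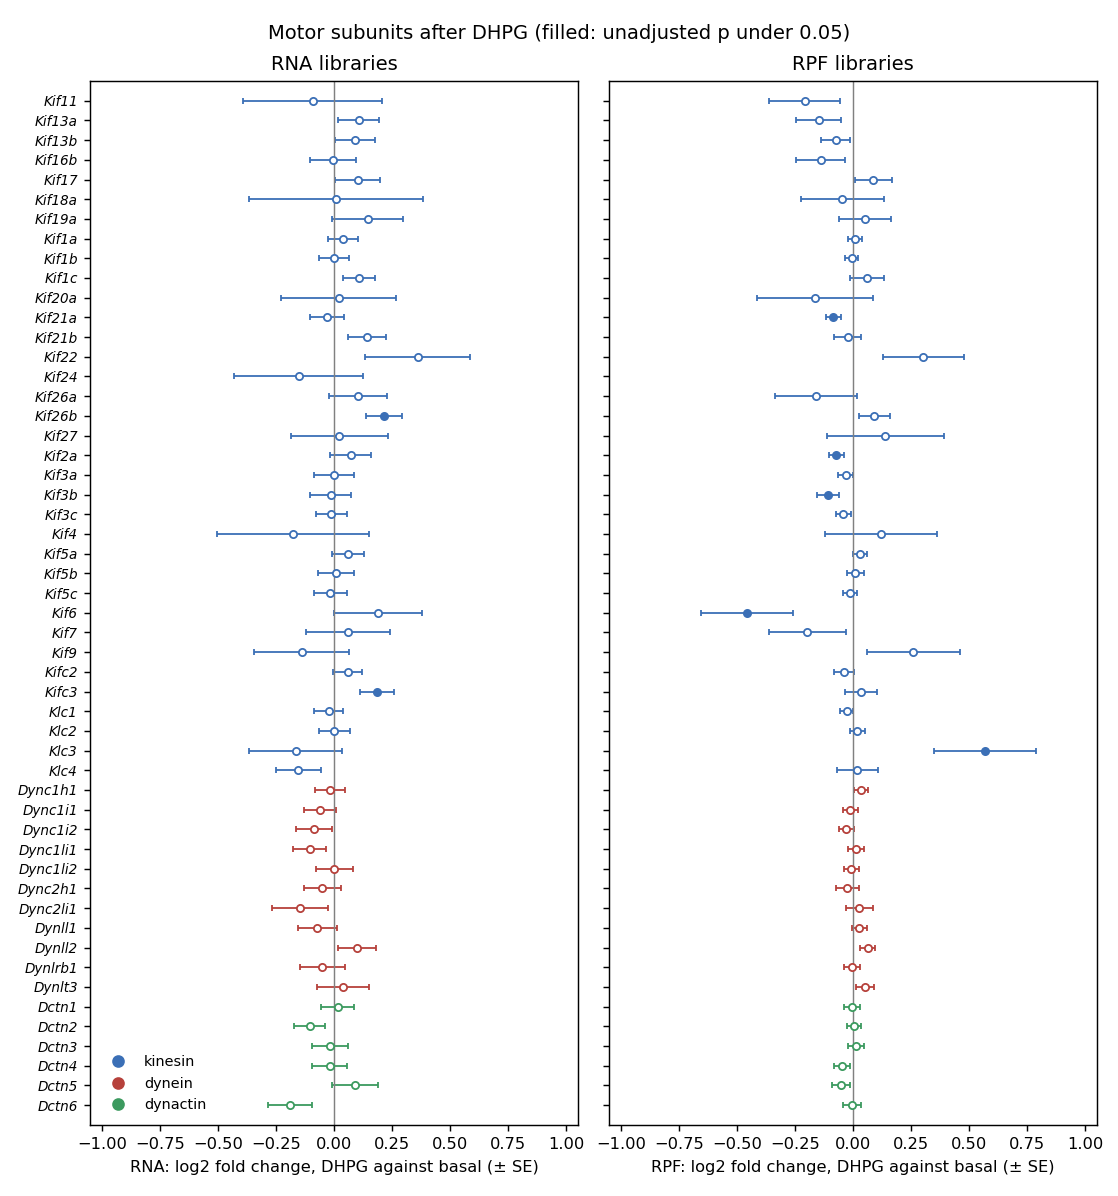
Log2 fold change of DHPG against basal with its SE from edgeR for the members tested, RNA on the left and RPF on the right, kinesin chains in blue, dynein in red and dynactin in green, filled where the unadjusted p was under 0.05. No member passed the adjusted threshold. Klc3 (0.57) and Kif6 (−0.46) lie farthest from zero in RPF and have wide errors, while Kif5a, Kif5b and Kif5c lie within 0.03.

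The change of footprints beyond that of RNA was fitted in 1 model over the 19 libraries. Of 53 members tested, 0 had an adjusted p under 0.05 in edgeR, as had 0% of all 13320 genes tested. At an unadjusted p under 0.05 there were 2 members (3.77%) against 6.54% of all genes, and limma on the difference called 0 members. The members at an unadjusted p under 0.05 in edgeR were Klc3, with a log2 difference of 0.73 (0.45 without replicate 3), and Kif6, with −0.65 (−0.42 by limma). Kifc3 (−0.15, and −0.09 with GC and length trends removed) and Kif13a (−0.26), a kinesin-3 of endosomal transport, were next among those lower, and Dctn6 (0.18) and Dctn2 (0.11, and 0.07 without replicate 2) among those higher. Kif5a stood at −0.03, Kif5b at 0.0011 and Kif5c at 0.0022. In direction, 22 of 53 members were higher (41.5%), as were 49.4% of all genes. The median was −0.05 over 36 kinesin chains, of which 10 were higher, 0.05 over 11 dynein subunits, of which 9 were higher, and −0.0020 over all genes. By replicate the kinesin median was 0.03, 0.01, −0.12 and −0.09 in replicates 1 to 4, so its direction was not shared. The dynein median was 0.07, 0.12, 0.04 and 0.02, above zero in all 4, with 10, 6, 6 and 6 of the 11 subunits higher.

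The proteins that connect motors to cargo were taken as a list of their own. Of 36 adaptors and motor regulators tested in RNA, 35 in RPF and 36 in TE, 0 passed in edgeR, and 3, 5 and 4 had an unadjusted p under 0.05, where 8.02%, 10.8% and 6.54% of all genes did. The 3 in RNA were the mitochondrial anchor Snph (log2 fold change 0.19), the mitochondrial adaptor Trak1 (0.19) and the JNK scaffold Mapk8ip1 (0.15). Snph, too, is listed by the paper among its DHPG-responsive RNAs. Of the 17 microtubule-associated proteins, 0 passed in RNA and TE, where 1 and 2 had an unadjusted p under 0.05, and 1 passed in RPF, where 0.22% of all genes did. A further 4 in RPF had an unadjusted p under 0.05, which 10.8% of all genes had. The 1 past the threshold was Map4, named after its value was seen, which stabilises microtubules. It rose by a log2 fold change of 0.13 (SE 0.03, adjusted p = 0.0341 in edgeR).

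The defining markers of neurons were abundant in all libraries (4726 to 6834.5 CPM summed over 8 genes in RNA, 10355 to 11287 in RPF), and those of hippocampal neurons summed to 1047 to 1273 CPM over 8 genes in RNA. The 8 thalamus markers summed to 141 to 176 CPM in basal RPF and to 144 to 233 after DHPG, all 8 were higher (median log2 fold change 0.46), and 6 of the 8 passed the threshold in RPF and 1 of 6 tested in RNA. Of all genes tested, 0.22% passed in RPF and 0.00773% in RNA, and 51.4% were higher in RPF and 52.1% in RNA. Oligodendrocyte markers summed to 4368 to 9081 CPM in basal RPF and 5071 to 10259 after DHPG, with 1 of 8 (Mag, 0.16) past the threshold in RPF and 0 of 8 in RNA, where 5 had an unadjusted p under 0.05. Of the markers of neurons, hippocampal neurons, astrocytes, microglia, endothelial and mural cells, ependyma and choroid plexus, and dividing cells, 0 passed in either assay. In RPF, 3 of 8 astrocyte and 3 of 8 microglia markers had an unadjusted p under 0.05, above the 10.8% of all genes. The others of these lists in RPF, and each of them in RNA, had fewer than 3, where 8.02% of all genes did in RNA. In RPF all 8 astrocyte and all 8 microglia markers were higher after DHPG (medians 0.05 and 0.07), 7 of 8 endothelial and mural markers were lower (median −0.13) and all 6 markers of dividing cells tested were lower (median −0.36). The RNA libraries did not share all of these directions. There, 6 of 8 astrocyte, 4 of 8 microglia and 4 of 8 endothelial and mural markers were higher. Of 4 markers of dividing cells tested in RNA, 3 were higher (median 0.11). The part of these cell types in the values of the motor genes after DHPG was not tested.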

How the data were processed

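RNA and RPF libraries of hippocampal slices were analysed as basal and DHPG groups given by the sample labels. The authors mapped reads with TopHat2, kept uniquely mapped, UMI-deduplicated reads and deposited expected counts from RSEM, on whole transcripts for RNA and on coding sequences less 30 nt at each end for RPF. The deposited expected counts are whole numbers and were used as deposited. A further 12 sample columns with higher replicate numbers matched no sample label and were not used here. According to the methods, later batches came from CA1-enriched slices, and the study's DHPG test in wild-type slices included them. The tests here thus rest on fewer libraries than the study's. Depth was 4870813 to 22092434 counts per library.

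Genes kept by filterByExpr were tested with edgeR 4.0.16 (R 4.3.3; TMM; quasi-likelihood F test; Benjamini-Hochberg over all genes tested), with the replicate number as a block. Thresholds were an adjusted p of 0.01 for RNA and 0.05 for RPF and TE. TE changes were the interaction of assay and treatment over 19 libraries. CPM used TMM-scaled totals. Levels per kilobase used the GENCODE transcript (mm10) with the longest coding sequence, and TE a prior count of 2. All 66 members matched the annotation. The scripts were tested on simulated counts.

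Replicate numbers were taken as the study's batches, which the labels do not state. Deviations from group means of same-numbered libraries correlated at 0.543, 0.271, 0.723 and 0.698 in RNA and at 0.259 to 0.523 in RPF. In RNA replicate 2 a differently numbered library correlated more closely (0.443). Nothing in the labels ties replicates to single animals, and p-values measure the spread between pooled samples. Alternatives were other normalizations, filters, lengths and prior counts, DESeq2 1.42.0, ComBat (sva 3.50.0) then DESeq2, limma 3.58.1, no replicate block, removal of GC and length trends, and leaving out each replicate. Intervals and limits cover counting error only.

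Named genes were Kif5a, Kif5b and Kif5c, the 3 members with the smallest p in each direction per comparison, the most footprint-rich member of each class, the 3 highest and 3 lowest in TE, and fixed paralog groups. Kif17, Dync2h1, Dctn5, Kifc1, Kifc5b, Kif12, Kif2b, Snph, Trak1 and Mapk8ip1 were added after their values were seen. The members and lists were chosen with earlier results of these data known.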

Additional observations from a re-analysis of the deposited data

Results flagged for a closer look

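In 153 groups of 4 or 5 libraries, 1 library was screened for lying far from the others, which chance alone would give in about 7.65, and 3 did. Dctn6 had 31.058 CPM in DHPG RNA replicate 1 against 25.3 to 26.9 CPM in the other DHPG RNA libraries. Dynll2 had 309.1 CPM in basal RPF replicate 2 against 247 to 264.5 CPM in the others. Kif26a had 26.741 CPM in DHPG RNA replicate 3 against 17.0 to 18.6 CPM in the others.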

How the results depend on the processing

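No alternative run for RNA or TE called a motor gene, and in RPF ComBat followed by DESeq2 called 1, Kif21a. Counts over all genes depended more on the setting. RNA calls, 1 as reported, were 7 without a filter, 102 with ComBat and DESeq2 and 22 without replicate 2. RPF calls, 29 as reported, were 96 without a filter, 429 with ComBat and DESeq2, and between 3 (without replicate 2) and 71 (without replicate 3) when a replicate was left out (10 without replicate 1, 50 without replicate 5). TE calls, 0 as reported, were 6 without a filter, 8 without replicate 2 and 1 without replicate 1 or 5. Without the replicate block, RNA, RPF and TE calls were 0, members called stayed at 0, and the TE changes were 0.0155 for Kif5a, −0.0651 for Kif5b and −0.0106 for Kif5c, opposite in sign to those with the block.

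Values near zero changed sign. With GC and length trends removed, Kif5a stood at −0.0108 in RNA and 0.0253 in TE. Without a filter TE was −0.0010 for Kif5b and −2.1e-05 for Kif5c, and with DESeq2 size factors −0.00028 for Kif5c. Leaving out 1 replicate at a time gave, in RNA, −0.0376 to 0.114 for Kif5a, −0.0811 to 0.0871 for Kif5b and −0.112 to 0.0171 for Kif5c. In RPF it gave −0.0297 to 0.0452 for Kif5b and −0.0299 to 0.00943 for Kif5c. In TE it gave −0.106 to 0.0438 for Kif5a, −0.0888 to 0.0420 for Kif5b and −0.0496 to 0.0858 for Kif5c. The DHPG change of log2 Kif5a over Kif5b lay between −0.0302 and 0.0962 in RNA and, in RPF, between −0.0154 and 0.0591. The cause was not tested.

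With the median transcript length, basal log2 Kif5a over Kif5c was 1.36 in RNA and −0.74 in RPF, Kif5a over Kif5b was 0.88 in RPF, and the median basal TE of the members was 0.13. Of 266 recomputed basal TE values of named genes, 8 moved by more than the replicate SD. With the number of places where a 30 nt fragment can start, an alternative chosen after seeing the data, TE was 6.36 for Dynll2 and 4.61 for Dynll1. Depth limits the mitotic motors, with few counts per library.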
